A study of Homo sapiens with 6 samples.

Results

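The macrophage scavenger, complement and lipid genes described here are CD163, C1QC, APOE, GPNMB, LPL, DAB2 and PLBD1. They are 7 of the 11363 genes listed in an RNA sequencing table of NOMO-1, an established line from a monocytic acute leukaemia of human origin, and all 7 names matched exactly 1 row of it. The study compared 3 libraries of parental cells, labelled WT, with 3 libraries of cells labelled MSLN-KO, in which the gene of the surface protein mesothelin had been knocked out. Both groups are the same line, the labels name no treatment or time, and how the knockout was made and whether it is 1 clone or a pool is not given in the sources used here. Nothing in the labels says that the replicates were separate cultures, and p-values therefore reflect the spread among these libraries alone, whose source may be technical.

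The 7 genes were chosen because earlier results of these data had shown them lower in MSLN-KO. Their difference between WT and MSLN-KO is therefore given as a description, with no test, and tests are given only for genes outside the 7.

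Tissue macrophages clear dying cells, spent haemoglobin and modified lipoproteins, and the genes described here take part in that work. CD163 is the surface receptor for haptoglobin-haemoglobin complexes. C1QC encodes a chain of C1q, which starts the classical complement pathway, and macrophages are a main source of C1q. APOE and LPL act on lipoproteins, APOE as a secreted ligand for endocytic lipoprotein receptors and LPL as the enzyme that frees fatty acids from their triglycerides. GPNMB encodes a transmembrane glycoprotein of endosomes and lysosomes that is abundant in lipid-laden macrophages. DAB2 is a clathrin adaptor for endocytic receptors, and PLBD1 encodes a phospholipase B-like protein of lysosomes and granules.

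The monocyte and macrophage name was checked against 23 defining markers of these cells. The table listed 17 of them, among them LYZ, CD68, ITGAM, CSF1R and CD14. SIGLEC1, MRC1, FOLR2, LYVE1, CD209 and TREM2, which mark tissue macrophages, were not listed. Every listed gene reached at least 4.9 CPM (read counts scaled to the normalized library total) in 3 or more libraries, so a gene below that level in both groups is not listed and was not analysed here. A gene below it in all libraries of a group is listed only if the other group is above it, which favours a difference. This holds for ITGA2B, AXL, HMOX1, COLEC12, CLEC7A and C3AR1, among others. Their calls and p-values are therefore a description only. Of the 7 genes, CD163, C1QC, APOE, GPNMB and DAB2 also lay below 4.9 CPM in every MSLN-KO library. They are listed only through WT, so the filter favours their ratios as well. Of 26 markers of other cell types, 4 were listed (PECAM1, NKG7, KRT18 and ITGA2B), with a summed level of 549 to 584.2 CPM in WT and 422.6 to 437.1 CPM in MSLN-KO. Most of that sum was PECAM1, an endothelial marker that myeloid cells also carry, which fell from 517.6 ± 19.0 to 382.8 ± 4.10 CPM (SD, n = 3 each). ITGA2B, a megakaryocyte and platelet integrin gene, went the other way, with 2.04, 1.39 and 1.77 CPM in the WT libraries and 6.72, 7.42 and 7.07 CPM in the MSLN-KO libraries (log2 change 1.57, limma adjusted p = 3.7e-07). NKG7 fell 1.21-fold, and KRT18 stood at 8.67 ± 0.916 and 8.21 ± 1.02 CPM (log2 change -0.07, limma adjusted p = 0.62). The part of these markers in the results was not tested. MSLN itself stood at 36.1% of its WT level in MSLN-KO. The libraries held between 23665824 and 30804446 reads in listed genes, and no pair within a group was as alike as counting noise alone would make it.

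The RefSeq table used here holds promoters for 5 of the 7 genes (GRCh38.p14), and the 250 bases before the start were searched on both strands for 4 short motifs. These were CACGTG and TCACATGA, which basic helix-loop-helix factors such as MITF and TFEB can bind, GAGGAA, a core of PU.1 sites, and TGANTCA, the AP-1 site. The 3 windows with a match are printed 5′ to 3′, because they carry the letters that the text refers to, with each match in capitals.
GPNMB: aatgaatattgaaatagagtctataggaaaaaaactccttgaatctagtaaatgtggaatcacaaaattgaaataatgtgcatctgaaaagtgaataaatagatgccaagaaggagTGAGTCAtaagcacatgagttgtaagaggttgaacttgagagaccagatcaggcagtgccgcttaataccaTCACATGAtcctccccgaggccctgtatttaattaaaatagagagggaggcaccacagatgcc
CD163: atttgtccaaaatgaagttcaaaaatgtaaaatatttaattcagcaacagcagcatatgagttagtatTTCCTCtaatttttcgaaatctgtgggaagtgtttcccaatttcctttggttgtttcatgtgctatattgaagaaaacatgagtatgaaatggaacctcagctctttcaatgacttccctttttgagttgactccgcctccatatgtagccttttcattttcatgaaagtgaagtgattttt
APOE: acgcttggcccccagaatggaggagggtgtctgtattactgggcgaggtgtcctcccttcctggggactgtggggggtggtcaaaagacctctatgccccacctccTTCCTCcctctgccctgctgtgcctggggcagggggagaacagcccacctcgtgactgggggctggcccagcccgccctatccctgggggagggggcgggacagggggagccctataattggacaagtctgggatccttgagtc
The GPNMB window (chr7:23246525-23246774, plus strand) held TGAGTCA from 134 to 128 bases before the start and TCACATGA from 63 to 56 bases before it. TCACATGA occurs in 0.851% and TGANTCA in 6.57% of 35116 promoter windows of this length. The CD163 window (chr12:7503778-7504027, minus strand) and the APOE window (chr19:44905546-44905795, plus strand, the first of several listed starts) each held GAGGAA on the opposite strand, printed as TTCCTC, which occurs in 23.6% of windows. The windows of DAB2 and PLBD1 held none of the 4 motifs, and CACGTG, present in 6.34% of windows, was in none of the 5. A match is a description of the letters and shows no binding.

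All 7 genes were lower in MSLN-KO, and in 7 of 7 every MSLN-KO library lay below every WT library. Among all listed genes 54.7% had groups that did not overlap, 28.1% with MSLN-KO below WT and 26.6% with MSLN-KO above, and a ratio of at least 3, which all 7 reached, was found in 0.616% of genes. Since the 7 were chosen on this difference, nothing is read from those shares. The ratio of mean CPM, WT over MSLN-KO, ran from 3.50 for PLBD1 to 25.2 for C1QC, with a median of 8.95, against a median of 0.995 over all genes. In RNA from bulk cells, fewer cells of a type and less RNA per cell cannot be told apart.

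**Figure D1:**
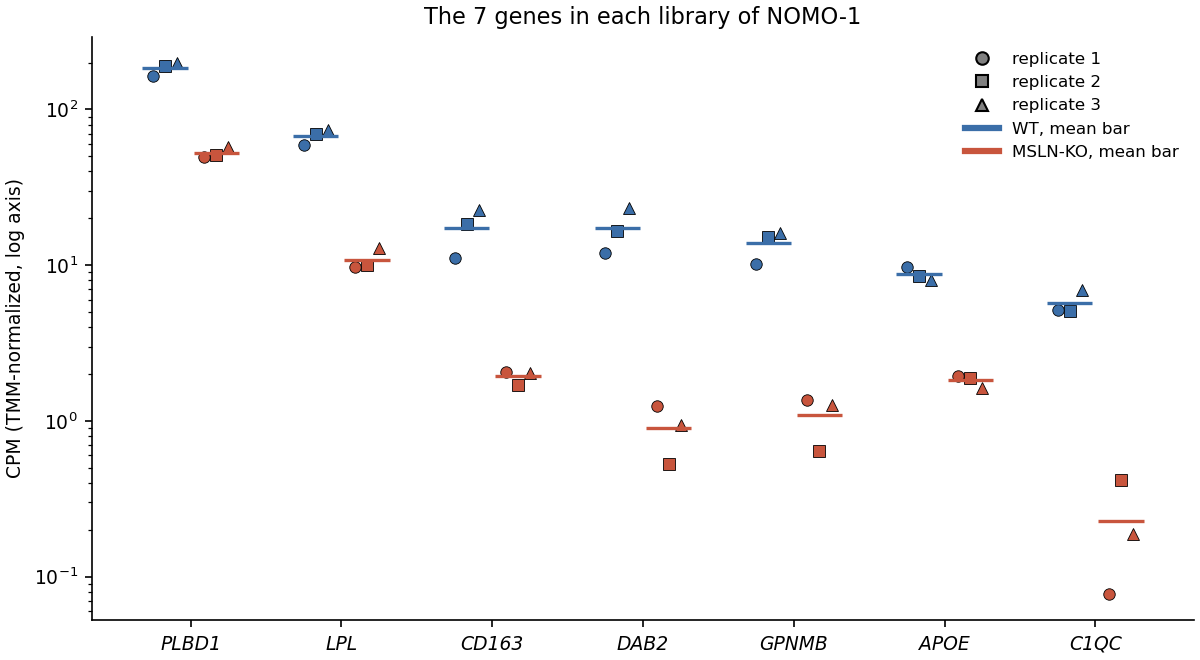
TMM-normalized CPM (log axis) of the 7 genes in each of the 3 WT and 3 MSLN-KO libraries of NOMO-1, with symbols for replicates and bars for group means. For each gene the 3 MSLN-KO points lie below the 3 WT points, and the gap is widest for C1QC, whose WT points lie at 5.11 to 6.91 CPM and MSLN-KO points at 0.0777 to 0.414 CPM.

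The scavenger receptor gene came first. CD163 (ENSG00000177575.13, GRCh38 chromosome 12, 7470813 to 7503893) stood at 11.1, 18.3 and 22.5 CPM in WT replicates 1 to 3 and at 2.06, 1.70 and 2.04 CPM in MSLN-KO replicates 1 to 3. WT replicate 1 was well below the other WT libraries, yet still above every MSLN-KO library. The group means were 17.3 ± 5.77 and 1.93 ± 0.205 CPM (SD, n = 3 each), so that 11.2% of the WT level was left. These values rest on 1278 reads in WT and 163 in MSLN-KO. Read numbers here are inferred from the step between CPM values.

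C1QC (ENSG00000159189.13, chromosome 1, 22643630 to 22648110) was the lowest of the 7 in reads. It had 126, 132 and 164 reads in the WT libraries (5.14, 5.11 and 6.91 CPM) and 2, 11 and 6 reads in the MSLN-KO libraries (0.0777, 0.414 and 0.188 CPM). The 19 MSLN-KO reads have an exact 95% Poisson interval of 11.4 to 29.7, which covers counting error only and holds as far as the inferred reads do. The ratio of 25.2 became 43.0 without MSLN-KO replicate 2, which held most of those reads. C1QA and C1QB, which encode the other chains of C1q, were not listed.

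APOE (ENSG00000130203.10, chromosome 19, 44905754 to 44909393) stood at 9.71, 8.47 and 8.004 CPM in WT and at 1.94, 1.88 and 1.63 CPM in MSLN-KO. The groups did not overlap, with means of 8.73 ± 0.881 and 1.82 ± 0.164 CPM (SD, n = 3 each). Its ratio of 4.80 was the second smallest of the 7.

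LPL (ENSG00000175445.17, chromosome 8, 19901717 to 19967259) stood at 58.9, 69.1 and 74.0 CPM in WT and at 9.71, 10.1 and 12.8 CPM in MSLN-KO. The lowest WT library was 4.60 times the highest MSLN-KO library. The means of 67.3 ± 7.69 and 10.9 ± 1.70 CPM (SD, n = 3 each) gave a ratio of 6.20.

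GPNMB (ENSG00000136235.17, chromosome 7, 23235967 to 23275108) stood at 10.2, 15.1 and 16.2 CPM in WT and at 1.36, 0.640 and 1.26 CPM in MSLN-KO. MSLN-KO replicate 2 was the lowest, with 17 reads against 35 and 40 in the other MSLN-KO libraries. The means were 13.8 ± 3.21 and 1.08 ± 0.389 CPM (SD, n = 3 each), a ratio of 12.7.

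DAB2 (ENSG00000153071.15, chromosome 5, 39371675 to 39462300) stood at 12.0, 16.5 and 23.2 CPM in WT and at 1.24, 0.527 and 0.942 CPM in MSLN-KO. Both groups spread widely and did not overlap, with 293, 426 and 551 reads in WT and 32, 14 and 30 in MSLN-KO. The means of 17.2 ± 5.66 and 0.904 ± 0.359 CPM (SD, n = 3 each) gave a ratio of 19.0, and 5.25% of the WT level was left.

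PLBD1 (ENSG00000121316.11, chromosome 12, 14503661 to 14568349) was the most abundant of the 7 in both groups and kept the largest share of its WT level, 28.6%. It stood at 164.4, 189.3 and 197.9 CPM in WT and at 49.6, 50.9 and 57.3 CPM in MSLN-KO. The means were 183.9 ± 17.4 and 52.6 ± 4.12 CPM (SD, n = 3 each).

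Levels of different genes were compared per kilobase of exon (GENCODE 29, all transcripts of a gene merged). In WT, PLBD1 came first at 64.7 ± 6.12 CPM per kb, followed by LPL at 15.4 ± 1.75, C1QC at 4.28 ± 0.772, APOE at 3.98 ± 0.402, CD163 at 2.97 ± 0.993, GPNMB at 2.29 ± 0.531 and DAB2 at 2.23 ± 0.734 CPM per kb (SD, n = 3 each). PLBD1 and LPL stood apart from all others. C1QC and APOE, C1QC and CD163, and APOE and CD163 did not differ beyond the spread between libraries. The same held for CD163 and GPNMB, CD163 and DAB2, and GPNMB and DAB2. In MSLN-KO the order was PLBD1 (18.5 ± 1.45), LPL (2.48 ± 0.388), APOE (0.830 ± 0.0748), CD163 (0.332 ± 0.0353), GPNMB (0.180 ± 0.0644), C1QC (0.170 ± 0.129) and DAB2 (0.117 ± 0.0466 CPM per kb), where the libraries of C1QC overlapped those of CD163, GPNMB and DAB2. By its mean, C1QC moved from the third place to the sixth. Of the genes that passed C1QC, only APOE lay apart from it in MSLN-KO, and in WT those 2 overlapped. Per kilobase, PLBD1 lay above 95.2% of listed genes in WT and above 80.9% in MSLN-KO, and LPL above 75.8% and 17.5%.

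The WT libraries differed among themselves in most of the 7. CD163, GPNMB, LPL, DAB2 and PLBD1 were lowest in WT replicate 1 and highest in WT replicate 3, an order that 13.4% of all listed genes shared. WT replicate 3 was at least 1.2 times WT replicate 1 for 6 of the 7 genes (CD163 2.03, DAB2 1.94, GPNMB 1.59, C1QC 1.34, LPL 1.26 and PLBD1 1.204 times) and for 4.2% of all listed genes. The bar of 1.2 was chosen after the values were seen, and APOE went the other way at 0.824 times. The coefficient of variation among WT libraries was 33.4% for CD163, 32.9% for DAB2 and 23.2% for GPNMB, against a median of 7.76% over the 4225 genes with a WT mean of 5 to 25 CPM. In the scavenger and engulfment list given next, 5 of 13 genes (AXL, MERTK, CLEC7A, CD36 and ITGAV) were likewise lowest in WT replicate 1 and highest in WT replicate 3. What these libraries differ in was not tested.

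**Figure D2:**
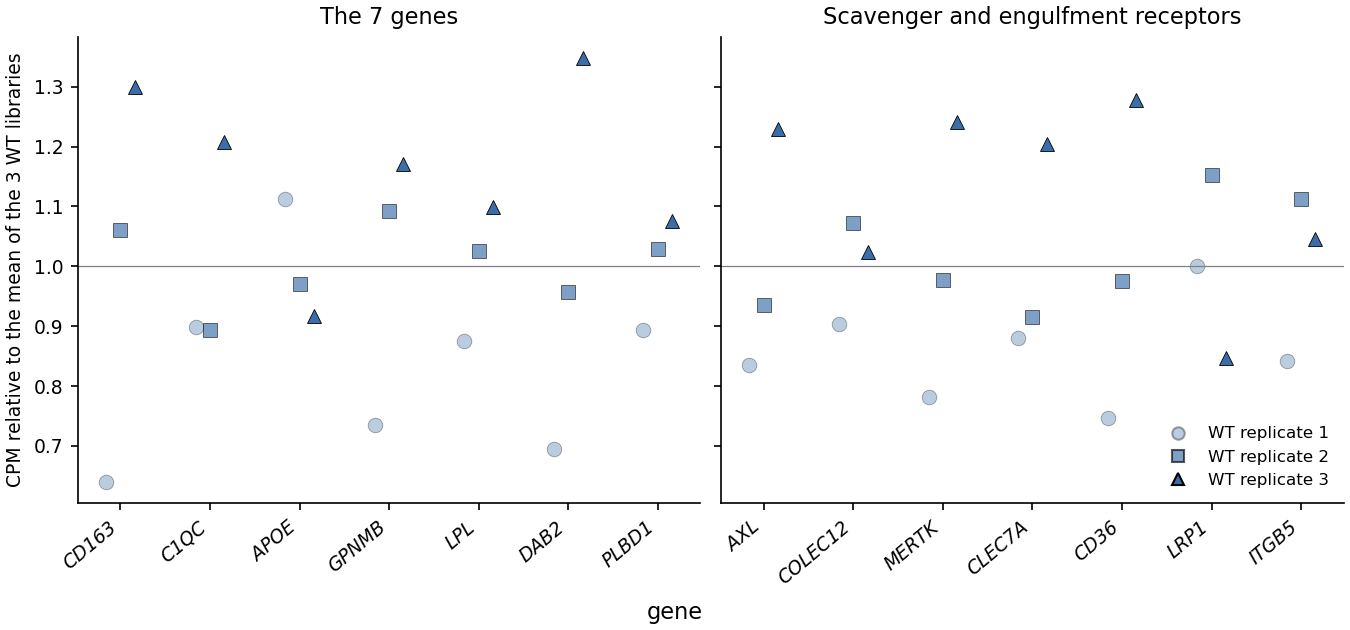
CPM in each WT library divided by the mean of the 3 WT libraries, for the 7 genes (left) and for 7 receptors of the scavenger and engulfment list (right). WT replicate 1 is the lowest point for CD163, GPNMB, LPL, DAB2 and PLBD1 and for AXL, COLEC12, MERTK, CLEC7A, CD36 and ITGB5, while APOE is highest there.

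Other genes of the same processes were taken from 9 lists, tested with limma on log2(CPM + 1) over all 11363 genes and called where the p-value, adjusted by Benjamini-Hochberg, was under 0.05. Over all genes 45.7% were called, 23.3% lower and 22.4% higher in MSLN-KO. The balance depends on the scaling: 2652 genes fell and 2545 rose, and with the columns rescaled to a common total 2278 fell and 2942 rose, the median log2 change moving from 0.01 to 0.04. Of the 167 listed genes of the 9 lists, the 7 left out, 56 fell and 39 rose (33.5% and 23.4%), with a median log2 change of -0.06 against 0.01 over all genes. Some genes stand in more than 1 list and were counted once here. These lists and the marker lists were drawn up with earlier results of these data known. Their shares are therefore set beside those of all genes as a description only.

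**Figure D3:**
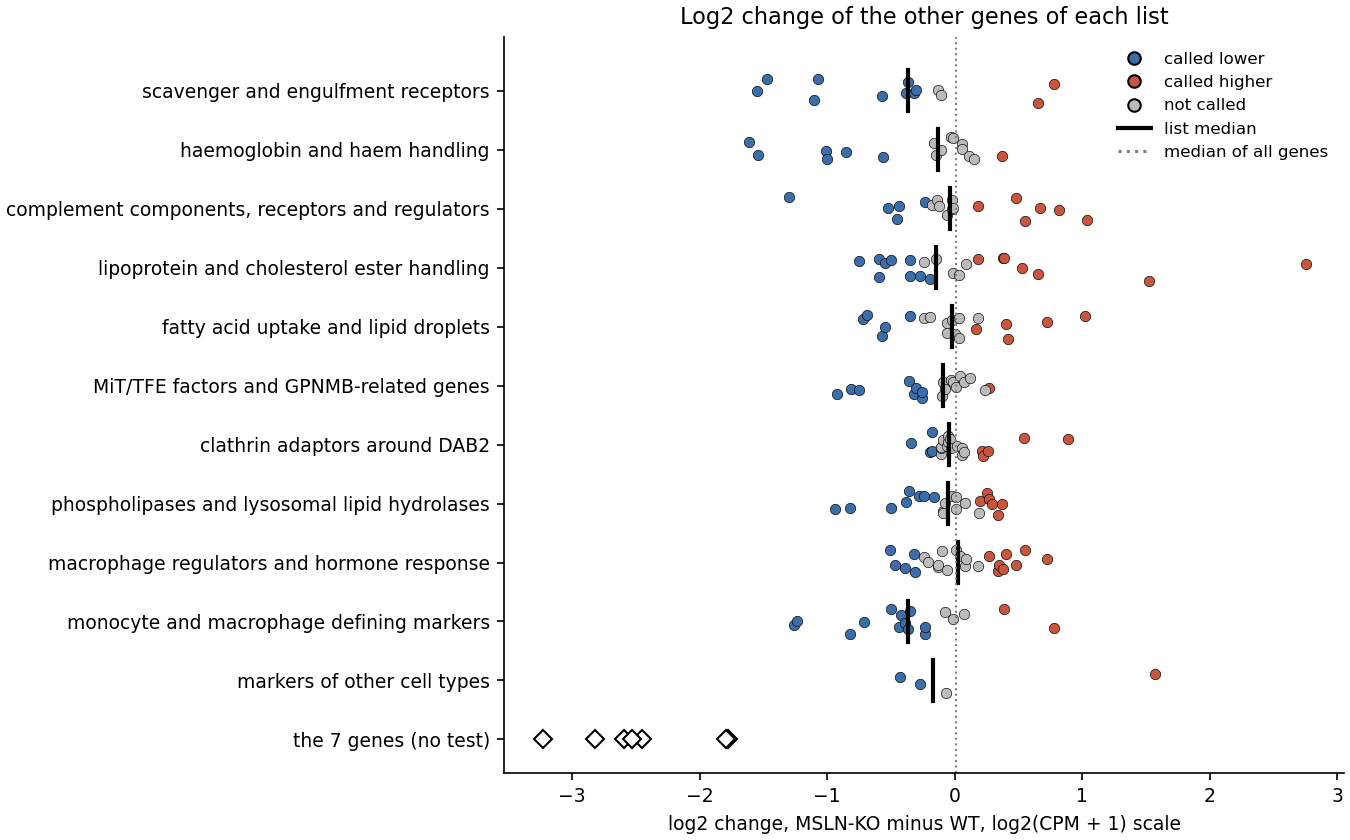
Log2 change (MSLN-KO minus WT, log2(CPM + 1) scale) of each listed gene of the 9 process lists and 2 marker lists, coloured by call, with list medians as bars and the 7 genes as diamonds below. The scavenger and macrophage marker lists have medians of -0.37, the other process lists have medians between -0.15 and 0.02, and APOC2 stands alone at 2.75.

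The listed scavenger and engulfment receptors were mostly lower. The list held 25 genes beside CD163, of which 13 were listed. Of these 13, 9 fell (69.2%, against 23.3% of all genes) and 2 rose (15.4%, against 22.4%), with a median log2 change of -0.37. The falls include AXL, COLEC12 and CLEC7A, which lay below 4.9 CPM in every MSLN-KO library and are listed only through WT. Their falls are a description only, and the filter favours falls in this share. AXL, a receptor kinase that binds dying cells through GAS6, stood at 6.12, 6.85 and 9.02 CPM in WT and at 2.41, 1.43 and 1.67 CPM in MSLN-KO with no overlap (log2 change -1.55, SE 0.16, limma adjusted p = 4.4e-06). MERTK, its relative on macrophages, fell from 19.4 ± 4.48 to 8.45 ± 1.08 CPM (SD, n = 3 each), and COLEC12, a scavenger receptor of the collectin family, fell from 7.94 ± 0.686 to 2.25 ± 0.537 CPM. CD163L1, the nearest relative of CD163, fell less, from 15.2 ± 0.930 to 11.4 ± 0.626 CPM (log2 change -0.38, limma adjusted p = 0.0027). CD163L1 overlaps CD163 in the annotation, and how reads in the overlap were counted is not given in the sources used here. LRP1, the large endocytic receptor that binds APOE, rose 1.56-fold and the integrin gene ITGB5 1.80-fold. MSR1, MARCO, STAB1 and MRC1 were not listed.

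Of 16 listed genes that handle haemoglobin and haem, CD163 aside, 6 fell (37.5%, against 23.3% of all genes) and 1 rose (6.25%, against 22.4%), with a median of -0.13. The share called in either direction, 43.8%, was near the 45.7% of all genes. HP, the haptoglobin whose complex with haemoglobin CD163 takes up, stood at 25.95, 20.01 and 24.85 CPM in WT and at 6.60, 6.25 and 8.32 CPM in MSLN-KO (log2 change -1.61, SE 0.12, limma adjusted p = 2.1e-07). HMOX1, the inducible haem oxygenase, stood at 5.10, 6.27 and 7.41 CPM in WT and at 1.51, 1.36 and 1.54 CPM in MSLN-KO (log2 change -1.54, SE 0.13, limma adjusted p = 1.1e-06). For both genes the groups did not overlap, and HMOX1, like CD163, was lowest in WT replicate 1 and highest in WT replicate 3. HMOX1 lay below 4.9 CPM in every MSLN-KO library and is listed only through WT, so its fall is a description only. BLVRA, which reduces the biliverdin that haem oxygenase makes, fell 2.06-fold, and the iron exporter gene SLC40A1, named after its values were seen, fell 2.04-fold. BLVRB, the other biliverdin reductase gene, rose 1.30-fold. FTL, the ferritin light chain gene, stood at 1665 ± 72.6 and 1735 ± 121 CPM (log2 change 0.06, limma adjusted p = 0.53).

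Complement genes split. Of 18 listed beside C1QC, 5 fell (27.8%, near the 23.3% of all genes) and 6 rose (33.3%, against 22.4%), with a median of -0.04. C3AR1, the receptor for the C3a fragment, fell from 7.42 ± 1.33 to 2.40 ± 0.231 CPM (SD, n = 3 each). C3AR1 lay below 4.9 CPM in every MSLN-KO library and is listed only through WT, so its fall is a description only. CD93, a myeloid surface protein once described as a C1q receptor, fell 1.43-fold, and the complement receptor gene CR1 fell 1.40-fold. C5, which encodes the component that yields C5a, rose from 32.0 ± 3.65 to 66.6 ± 2.34 CPM, and CFD, complement factor D of the alternative pathway, rose 1.76-fold. C3 stood at 35.05 ± 7.12 (WT) and 34.25 ± 1.504 CPM (MSLN-KO; log2 change -0.01, limma adjusted p = 0.93).

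Lipoprotein and cholesterol ester genes also split. Of 21 listed beside APOE and LPL, 9 fell (42.9%, against 23.3% of all genes) and 7 rose (33.3%, against 22.4%), with a median of -0.15. ABCA1, the exporter that loads cholesterol onto apolipoproteins, fell 1.76-fold and the phospholipid transfer protein gene PLTP 1.53-fold. LIPA, the lysosomal lipase of cholesterol esters, fell from 165.9 ± 14.7 to 117.0 ± 0.189 CPM. VLDLR, a receptor that binds APOE, rose from 12.4 ± 2.04 to 37.1 ± 1.39 CPM (log2 change 1.52, SE 0.10, limma adjusted p = 8.5e-08). NR1H3, which encodes the oxysterol receptor LXR alpha, a known activator of APOE and ABCA1, stood at 6.83 ± 0.658 and 5.62 ± 0.567 CPM (log2 change -0.24, limma adjusted p = 0.087). NR1H2, the gene of LXR beta, named after its values were seen, rose from 40.4 ± 4.67 to 53.4 ± 6.03 CPM (log2 change 0.39, limma adjusted p = 0.0042). TREM2 was not listed.

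The rise of APOC2 was the largest change in these lists. APOC2 encodes the cofactor that LPL needs, and lies 40.2 kb from APOE by their lower ends in the apolipoprotein cluster of chromosome 19. It stood at 8.28, 8.475 and 7.08 CPM in WT and at 59.9, 60.5 and 57.1 CPM in MSLN-KO, a 7.45-fold rise with no overlap (log2 change 2.75, SE 0.08, limma adjusted p = 4.2e-11). APOC1, the nearest listed gene on that side of APOE, rose from 8.25 ± 1.91 to 12.2 ± 1.12 CPM (log2 change 0.53, SE 0.14, limma adjusted p = 0.0068). TOMM40, 2.06 kb away on the other side, stood at 63.0 ± 6.55 (WT) and 56.7 ± 5.47 CPM (MSLN-KO; log2 change -0.15, limma adjusted p = 0.17). Within 1 Mb of APOE, 22 of 40 listed genes were called higher and 0 lower, with a median of 0.27 against 0.15 for chromosome 19. Over all genes 22.4% were called higher and 23.3% lower. The 22 include zinc finger genes such as ZNF224 and ZNF225.

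Fatty acid genes downstream of LPL gave 5 falls and 5 rises among 19 listed, with a median of -0.02. Each share was 26.3%, near the 23.3% lower and 22.4% higher of all genes. MGLL, which cleaves monoglycerides, fell 1.67-fold, the fatty acid binding protein gene FABP5 1.64-fold, and CD36, a receptor for fatty acids and oxidized lipoproteins, 1.53-fold. ACSL1, which activates long-chain fatty acids, rose from 40.6 ± 3.54 to 83.5 ± 6.48 CPM and the transporter gene SLC27A1 rose 1.71-fold.

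Among genes tied to GPNMB, 8 of 19 fell (42.1%, against 23.3% of all genes) and 1 rose (5.26%, against 22.4%), with a median of -0.09. SPP1, which encodes osteopontin, fell 1.87-fold, the galectin gene LGALS3 1.78-fold and the tetraspanin gene CD9 1.74-fold. Of the factors that can bind sites like the TCACATGA printed above, MITF fell from 20.3 ± 2.55 to 16.01 ± 0.786 CPM (log2 change -0.32, limma adjusted p = 0.013), a call lost when WT replicate 2 or MSLN-KO replicate 1 was left out (limma adjusted p from 0.0066 to 0.056 over the alternatives). TFEC stood at 74.0 ± 0.790 and 74.7 ± 6.64 CPM, TFE3 at 32.3 ± 0.910 and 30.1 ± 1.64 CPM, and TFEB at 12.6 ± 1.75 and 15.02 ± 0.254 CPM (limma adjusted p = 0.92, 0.26 and 0.058). FLCN, which holds these factors in the cytoplasm, rose 1.21-fold. PMEL, the closest relative of GPNMB, was not listed.

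Of 22 listed genes of the clathrin machinery that DAB2 works with, 4 fell (18.2%), 5 rose (22.7%) and 13 were not called, with a median of -0.04. The share called, 40.9%, was near the 45.7% of all genes. AP2M1, a subunit of the AP-2 adaptor, fell 1.26-fold. The count of 4 became 1 without WT replicate 3 or MSLN-KO replicate 1 and 2 without MSLN-KO replicate 3. MYO6, the myosin motor that DAB2 binds, rose from 109.0 ± 9.24 to 203.1 ± 14.6 CPM (SD, n = 3 each; log2 change 0.89, limma adjusted p = 4.3e-07). DAB1 was not listed.

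Phospholipases and lysosomal lipid hydrolases gave 8 falls and 6 rises among 22 listed beside PLBD1 (36.4% and 27.3%, against 23.3% and 22.4% of all genes, median -0.05). PLBD2, the paralog of PLBD1, stood at 21.3 ± 1.75 (WT) and 22.7 ± 1.56 CPM (MSLN-KO; log2 change 0.08, 95% interval of limma -0.10 to 0.26, adjusted p = 0.44). HEXA, a hexosaminidase gene on chromosome 15, fell 1.93-fold and PLA2G4A, the cytosolic phospholipase that frees arachidonic acid, fell 1.78-fold. GPCPD1 and PLA2G6 each rose 1.29-fold.

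Regulators known to act on macrophage genes moved in both directions. Of 24 listed, 5 fell (20.8%, against 23.3% of all genes) and 8 rose (33.3%, against 22.4%), with a median of 0.02. SMAD3, on chromosome 15, fell 1.40-fold and CSF1R, the receptor of macrophage colony-stimulating factor, fell 1.31-fold. TSC22D3, a glucocorticoid-induced gene, rose 1.66-fold and CEBPB rose 1.49-fold. SPI1, which encodes PU.1, stood at 95.9 ± 4.19 and 88.2 ± 12.9 CPM (log2 change -0.13, limma adjusted p = 0.25). CD163 is itself induced by glucocorticoids in monocytes, and their receptor gene NR3C1 rose 1.203-fold, while FKBP5, another glucocorticoid-induced gene, stood at 65.3 ± 6.14 and 67.0 ± 3.55 CPM (log2 change 0.04, limma adjusted p = 0.70).

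Among the 17 listed monocyte and macrophage markers, 12 fell (70.6%, against 23.3% of all genes) and 2 rose (11.8%, against 22.4%), with a median of -0.37. LYZ, the lysozyme gene, fell from 14540 ± 317 to 6081 ± 320 CPM, CD14 from 11.3 ± 1.97 to 4.21 ± 0.849 CPM and MS4A7 1.78-fold. FCGR1A rose 1.74-fold and CD33 1.32-fold. The summed level of the 17 was 18430 to 19440 CPM in WT and 9806 to 10540 CPM in MSLN-KO, most of it LYZ. Their part in the lower level of the 7 genes was not tested.

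The genes around the other 6 were compared with them as well. Over the chromosomes that hold the 7 genes, the median log2 change of the other listed genes lay between -0.10 (chromosome 8) and 0.15 (chromosome 19). ATF7IP, whose annotated end lies 0.726 kb from that of PLBD1, rose from 100.9 ± 12.5 to 145.4 ± 9.94 CPM, and H4C16 on the other side stood at 46.0 ± 2.55 and 44.9 ± 1.82 CPM. FYB1, 97.1 kb from DAB2 and an adaptor gene of blood cells, fell from 244.5 ± 14.9 to 156.1 ± 12.5 CPM, and TTC33 on the other side rose from 45.3 ± 2.16 to 52.1 ± 4.24 CPM. Beside LPL, INTS10 stood at 98.9 ± 3.37 and 91.2 ± 4.89 CPM (limma adjusted p = 0.12) and ATP6V1B2 rose from 140.1 ± 5.40 to 156.6 ± 2.46 CPM. Beside GPNMB, NUP42 stood at 30.3 ± 0.927 and 30.9 ± 1.11 CPM (limma adjusted p = 0.77) and MALSU1 fell from 17.4 ± 1.58 to 14.2 ± 0.677 CPM. Beside C1QC, ZBTB40 stood at 57.3 ± 3.24 and 59.7 ± 1.98 CPM (limma adjusted p = 0.45) and EPHB2 fell from 30.7 ± 1.47 to 23.0 ± 1.53 CPM. Beside CD163, SLC2A14 rose from 4.41 ± 0.811 to 8.89 ± 0.307 CPM, while C3AR1 and the lectin gene CLEC4A, both within 1 Mb, had log2 changes of -1.30 each, CLEC4A being named after its value was seen. Within 1 Mb of CD163, 16 of 40 listed genes were called lower and 7 higher, with a median of -0.11 against 0.03 for chromosome 12. The shares over all genes were 23.3% lower and 22.4% higher. Falls of similar size lay within 1 Mb of LPL (SH2D4A, -1.19; 2 of 4 lower and 1 higher) and PLBD1 (PTPRO, -1.13; 3 of 6 lower and 1 higher), these 2 also named after their values were seen.

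**Figure D4:**
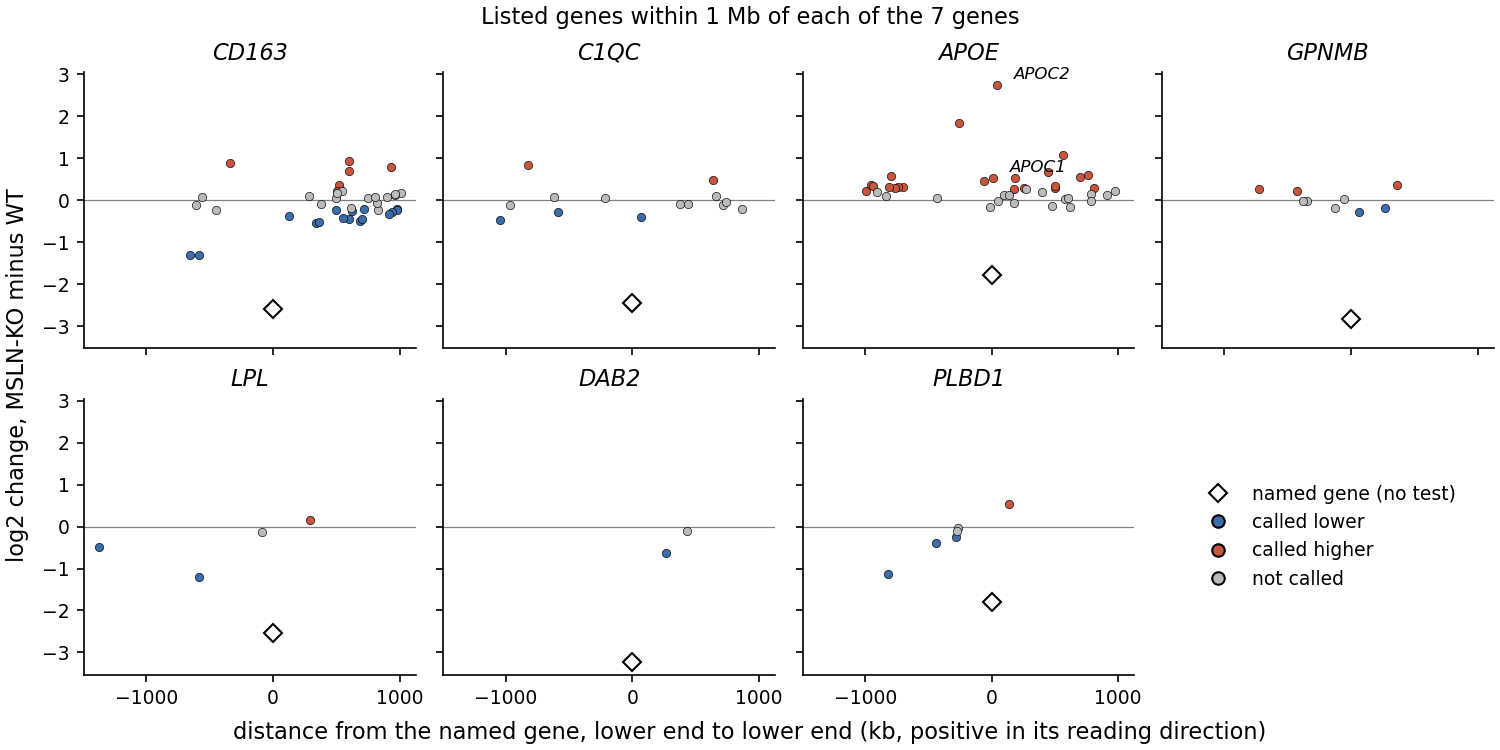
Log2 change (MSLN-KO minus WT, log2(CPM + 1) scale) of listed genes within 1 Mb of each of the 7 genes against distance in kb, coloured by call, with the named gene as a diamond at 0. In each panel the diamond lies below every neighbour, and since the 7 genes were chosen for their lower level, nothing is read from this. Around APOE 22 of 40 neighbours are called higher, up to APOC2 at 2.75.

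The genes whose levels over the 6 libraries followed the 7 most closely were found by the Euclidean distance between profiles of log2(CPM + 1), each centred on its mean. Since such a distance follows the same difference that chose the 7, it is a description only. CD163 was nearest to ANXA8L1, which has a near-identical copy among the annexins so that its reads are uncertain, and to AGR2 and CEACAM6 (distances 0.55, 0.55 and 0.60). C1QC was nearest to MMP8, TP63 and CYP7B1 (0.34, 0.36 and 0.43), APOE to NCAM2, AP3B2 and DSP (0.23, 0.27 and 0.27), and GPNMB to GJB2, AGR2 and CYP7B1 (0.67, 0.68 and 0.69). LPL was nearest to GJB6, CYP7B1 and GJB2 (0.32, 0.33 and 0.39), DAB2 to CLDN1, ANPEP and DEFB1 (0.43, 0.63 and 0.66), and PLBD1 to NCAM2, ANXA2 and HACD1 (0.24, 0.26 and 0.27). MMP8, like C1QC, stood highest among the MSLN-KO libraries in replicate 2, at 0.942 CPM against 0.233 and 0.283 CPM, and AGR2, like CD163, was lowest in WT replicate 1, at 6.89 CPM against 10.2 and 14.2 CPM. CYP7B1, an oxysterol hydroxylase, was among the nearest for C1QC, GPNMB and LPL, with means of 10.9 ± 0.344 CPM for WT and 0.982 ± 0.0777 CPM for MSLN-KO (SD, n = 3 each).

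Among the 7 themselves, CD163 and GPNMB were the closest pair (distance 0.45), then LPL and C1QC and PLBD1 and APOE (0.47 each). APOE and DAB2 were the farthest apart (1.99), with the smaller and the larger log2 difference (-1.78 and -3.23) and opposite order in WT replicates 1 and 3. The log2(CPM + 1) scale understates the difference of low genes, which places C1QC at -2.45 although its ratio of means was the largest.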

How the data were processed

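RNA from 3 WT and 3 MSLN-KO samples of NOMO-1 was depleted of ribosomal RNA and sequenced from strand-specific libraries, per the labels' protocols. The tools named are STAR, featureCounts and edgeR, and the build GRCh38/hg38, per the submitters' processing notes. Their versions and the annotation release are not stated there. The authors deposited CPM after TMM normalization for 11363 genes. Symbols matched 11354 identifiers without their version, and GENCODE 29 gave positions and exon lengths for 11314. All values in each column were whole multiples of 1 step within 0.01 of it, and read numbers are inferred from that step. A second check of the steps did not accept whole reads, so no count test was run.

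Linear models of log2(CPM + 1) used limma 3.58.1 under R 4.3.3 (variance trend, no covariates, two-sided), the self-test used simulated libraries, and genes were called at an adjusted p of 0.05. Folds are ratios of mean CPM; log2 changes are those of the models, and the added 1 CPM shrinks them for low genes. Named genes are the 7, MSLN, up to 3 called falls and 2 called rises per list, 9 family genes (4 of them listed), neighbours on each side and the 3 nearest profiles. Some genes the rule names are not reported here, and others were named after their values were seen. The members and lists were chosen with earlier results of these data known.

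Alternatives changed the pseudocount, filter, scaling, variance trend and replicate block, and left out each library.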

Additional observations from a re-analysis of the deposited data

How the results depend on the processing

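Of 193 alternative values for the count of all called genes, the falls in the 9 lists and the ratios of the 7 genes, 189 stayed close to the reported value (counts within 1.5 times, ratios within 1 SD). That SD is of the ratio, from the spread of both groups, and is wide for noisy genes. The move of C1QC from 25.2 to 43.0 therefore counted as close. Rises in the lists were not among these values. The exceptions were 4 counts of falls among clathrin adaptors: 2 in place of 4 with columns rescaled to a common total, and 1 to 4 when single libraries were left out (1 without WT replicate 3 or MSLN-KO replicate 1, 2 without MSLN-KO replicate 3). The ratio of C1QC ran from 19.0 to 43.0 and that of DAB2 from 15.7 to 23.4 when single libraries were left out. The median-of-ratios scaling was added after the data were seen, in place of planned tests on read counts. Those were not run, because the table holds no counts and a second check of its steps did not accept them as whole reads, so the read numbers printed here are inferred. With the replicate block 4946 genes were called against 5197 without it. Same-numbered libraries did not deviate together (Pearson's r of deviations across genes 0.19, -0.17 and -0.09; genes are not independent replicates), so the numbers were not taken as pairs. Depth limits C1QC, DAB2 and GPNMB in MSLN-KO, at 19, 76 and 92 reads in all.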
